A study of Homo sapiens with 8 samples.

Results

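The splicing factors described here are 45 genes of the spliceosome and of the proteins that steer it, chosen by gene symbol out of the 18664 genes of the deposited table. They comprised 3 proteins of the U1 small nuclear ribonucleoprotein (snRNP), 7 Sm core proteins, 11 proteins of the U2 snRNP and its partner U2AF, 8 proteins of the tri-snRNP and of spliceosome activation, 10 SR and Tra2 proteins, and 6 hnRNP proteins. RNA-seq was performed in cells labelled HT29, a human colon cancer cell line, with 4 libraries of cells carrying an shRNA against ALDH1A1 (shALDH1A1) and 4 libraries of control cells (CTRL). Both groups were grown in 10% FBS, and total RNA was extracted with Trizol. The control is named shControl, WT or parental in different labels, and which of the human shRNA sequences was used for these libraries is not given in the sources used here. Nothing states that replicates came from separate cultures, so the p-values measure the spread between these libraries, which may be technical. SNRNP70 is set beside the other factors because the study listed it from these same libraries, so its direction here is no independent evidence.

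The spliceosome removes introns from pre-mRNA. The U1 snRNP binds the 5′ splice site and U2AF and the U2 snRNP mark the 3′ end of the intron, after which the tri-snRNP of U4, U6 and U5 joins and the complex is remodelled into its active form. Rings of Sm proteins surround the small nuclear RNAs, while SR proteins and hnRNP proteins bind exons and introns and shift which splice sites are used. These proteins are made in every cell, and their RNAs are usually among the abundant messages of a dividing line.

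The libraries differed in composition beyond the splicing factors. They held 291260 to 4137111 counts, the lowest in CTRL replicate 2, and the genes with a count numbered 7164 to 10624 with the shRNA and 10953 to 15827 without it. ALDH1A1, the targeted gene, had 3, 1, 1 and 0 counts with the shRNA, in the order of replicates 1 to 4 used throughout, and 1858, 83, 1870 and 1000 in control cells. A list of 30 housekeeping genes, which every cell uses, took 0.0269 to 0.173% of each shALDH1A1 library and 1.13 to 4.86% of each CTRL library. Stomach epithelium markers, 15 genes, took 0.00223 to 0.0393% in shALDH1A1 libraries, with ATP4A and ATP4B at 0, and 3.28 to 38.8% in CTRL libraries, the highest in replicate 3. Colon epithelium markers, 14 genes, took 0.00267 to 0.0173% and 0.0144 to 0.134%, with CDX1 at 0 in the shALDH1A1 libraries and CDX2 at 0 in the CTRL libraries. Smooth muscle and fibroblast markers, 11 genes, took 0.000786 to 0.0398% with POSTN at 0 in shALDH1A1 libraries, against 0.079 to 2.86% in CTRL libraries, and 10 leukocyte markers took 0.084 to 0.116% with CD8A, MS4A1 and MZB1 at 0, against 0.0896 to 0.218%. Genes whose transcript holds sequence repeated across many genes took 78.6 to 84.9% of the shALDH1A1 counts, 71.0% of those of CTRL replicate 2 and 12.5 to 26.0% of those of CTRL replicates 1, 3 and 4. The markers thus do not bear out the HT29 label in either group, and whether the libraries hold RNA of these cells alone cannot be told from the values. Every fold change below compares the libraries as labelled, and the part of these differences in the results was not tested. In bulk RNA, fewer cells of a type and less RNA per cell cannot be told apart.

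Splicing factor transcripts were scarce in the shALDH1A1 libraries. The 45 genes together took 0.0316, 0.0478, 0.0324 and 0.0521% of the counts with the shRNA and 0.561, 0.139, 0.483 and 0.298% without it. The groups did not overlap, and CTRL replicate 2 lay nearest to the shALDH1A1 libraries. Of the 45 genes, 25, 4, 14 and 22 were at 0 counts in the shALDH1A1 libraries, while CTRL replicate 2 had 1 gene at 0 and the other CTRL libraries had 0. These are 55.6, 8.89, 31.1 and 48.9% of the splicing factors, below the 61.6, 43.1, 50.2 and 50.1% of all genes at 0 in the same shALDH1A1 libraries. In the CTRL libraries 0, 2.22, 0 and 0% of the splicing factors were at 0, against 17.6, 41.3, 15.2 and 27.7% of all genes. In shALDH1A1 replicate 1, SNRPD1 alone made up 71.1% of all splicing factor counts. Without SNRPD1 the shares were 0.00912, 0.0316, 0.0175 and 0.0409% in shALDH1A1 libraries and 0.555, 0.123, 0.481 and 0.294% in CTRL libraries.

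**Figure D1:**
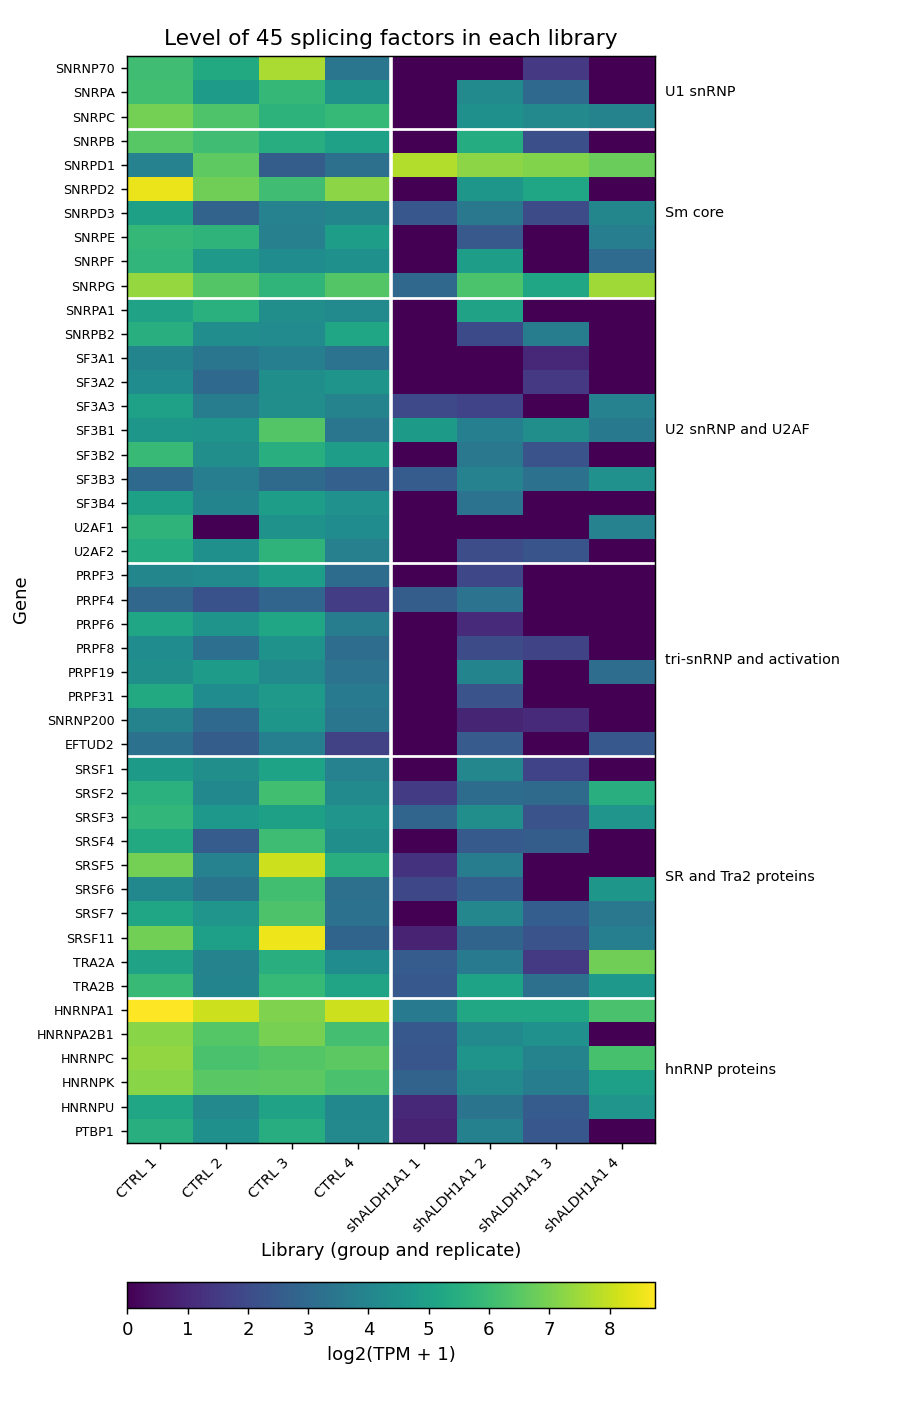
Level of the 45 splicing factors in each library as log2(TPM + 1), TPM being the deposited length-scaled share of transcripts, with genes in rows by role and libraries in columns. The darkest cells, at 0, number 25, 4, 14 and 22 of 45 in the shALDH1A1 columns and 1 in all CTRL columns, while SNRPD1 is the row that is brighter in the shALDH1A1 columns.

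Of the 45 genes, 41 had enough counts for the test of all genes, a quasi-likelihood test in edgeR on counts scaled by TMM factors, in which a gene was called at a Benjamini-Hochberg adjusted p under 0.05. With it 18 splicing factors fell in shALDH1A1 cells, 0 rose and 23 did not pass. At an unadjusted p under 0.05, 1 of them, SNRPD1, was higher. Lower calls were thus 43.9% of the tested splicing factors against 33.0% of all 7971 tested genes, and higher calls 0 against 2.60%. The count of lower calls was 40 of 44 without CTRL replicate 2, where 60.4% of all genes were lower, and 33 of 41 without CTRL replicate 4, where 3779 of 8582 were. It was 12 of 44 (27.3%) without shALDH1A1 replicate 1 or 4, against 22.5 and 23.9% of all genes, and 13 of 41 (31.7%) without CTRL replicate 1 or 3, against 24.6 and 26.0%. For 19 splicing factors every shALDH1A1 library lay below every CTRL library in counts scaled by TMM factors, the scale on which overlap is given below, against 36.0% of all tested genes. A gene under the filter on low counts in every shALDH1A1 library was tested only if every CTRL library passed that filter. For such genes, SNRNP70 and PRPF6 among them, the lack of overlap was largely set in advance. The median log2 fold change was -2.56 for the splicing factors and -1.44 for all tested genes, and 36 of the 41 lay below the median of all genes. The 28 tested housekeeping genes lay alike, with a median of -2.50 and 25 below that of all genes. SF3A2, U2AF1, PRPF4 and SRSF4 did not pass the filter on low counts. SF3A2 had 0, 0, 1 and 0 counts with the shRNA and 51, 1, 82 and 52 without it, SRSF4 had 0, 3, 4 and 0 against 163, 1, 411 and 67, and PRPF4 had 6, 8, 0 and 0 against 35, 1, 52 and 9.

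The number of calls moved with the scaling of the libraries. When libraries were scaled to the summed counts of the 30 housekeeping genes (the housekeeping scale), the median of all tested genes moved by 3.25, from -1.44 to 1.81 on the log2 scale, and that of the splicing factors from -2.56 to 0.04. On this scale SNRNP70 (-4.60, adjusted p = 0.0201, edgeR) and PRPF6 (-3.86, 0.0242) fell, and SNRPD1 (6.05, 0.0154), SNRPG (2.75, 0.0395) and SF3B3 (3.49, 0.0234) rose. The background was 5.49% of genes lower and 40.7% higher. The splicing factors lay below the median of all genes on both scales, by 1.11 with TMM factors and by 1.76 with the other, and 35 of 41 lay below it on the other scale. With TMM factors this gap was 0.66 without shALDH1A1 replicate 1, 0.80 without replicate 3 and 0.48 without replicate 4, where 31, 27 and 30 of 44 lay below the median. DESeq2, with its own size factors, called 38 splicing factors lower and 1 higher, where 56.0% of all genes were called lower and 16.7% higher. The directions given for single genes below are those with TMM factors.

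**Figure D2:**
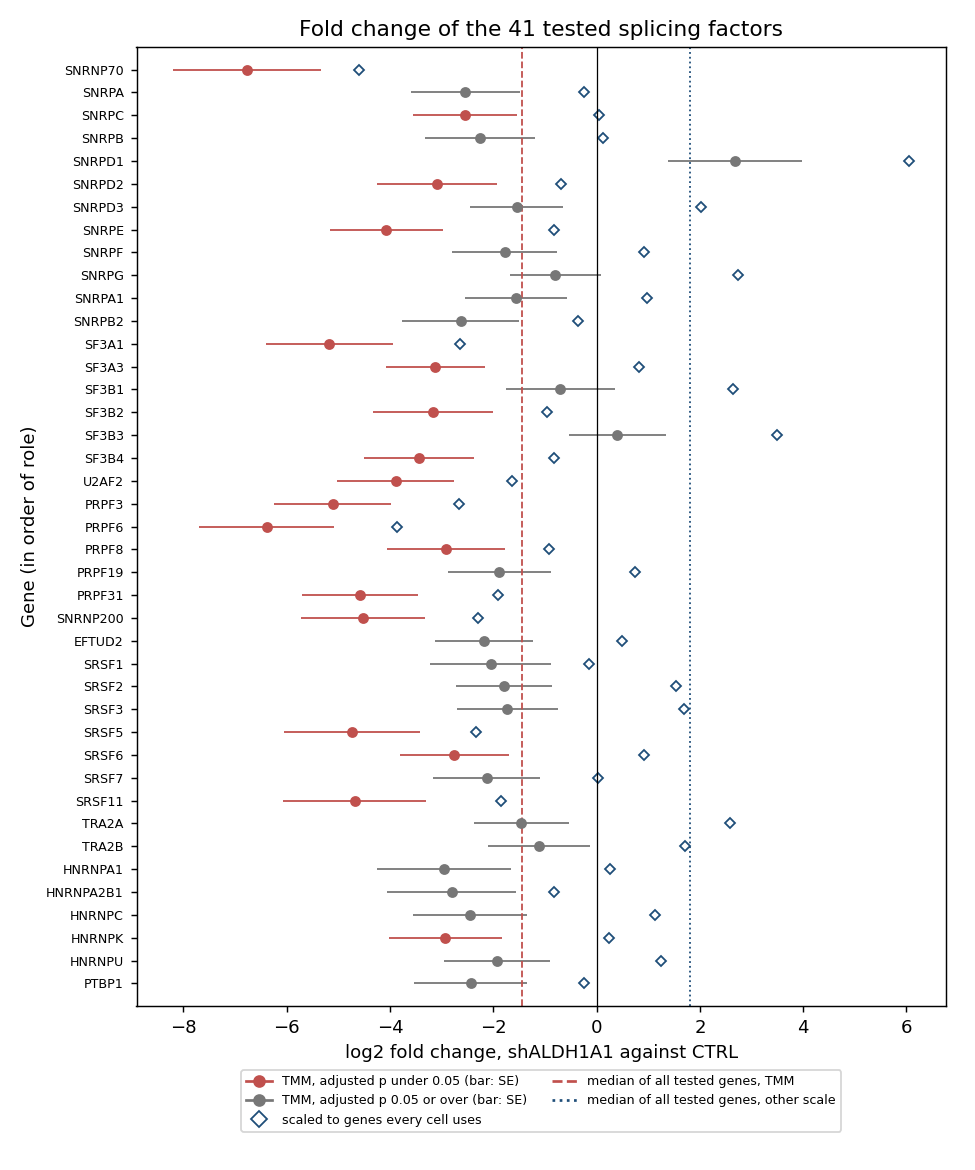
Log2 fold change of the 41 tested splicing factors, shALDH1A1 against CTRL, with TMM factors (circles with standard error, red where the adjusted p was under 0.05) and on the housekeeping scale (diamonds); the dashed and dotted lines mark the median of all tested genes on each scale. SNRNP70 and PRPF6 lie farthest to the left on both scales, SNRPD1 farthest to the right on both, and several genes, SNRPC among them, pass from below 0 to above 0 with the other scale.

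The U1 snRNP proteins recognise the 5′ splice site, and SNRNP70, SNRPA and SNRPC are the proteins particular to that particle. Their promoters, of 300 bases around the start of the gene, are shown because the genes encode a single particle and SNRNP70 had the lowest fold change of all the factors. Capitals mark the letters CCGGAAG, the core that ETS factors bind, on the strand printed. In SNRPC the same letters also stand on the opposite strand, where they overlap the capitals and take in the bases ctt just before them, left in lower case. The sequences are those of RefSeq on GRCh38.p14, at chr19:49085201-49085500 (+) for SNRNP70, chr19:40750953-40751252 (+) for SNRPA and chr6:34757255-34757554 (+) for SNRPC.
SNRNP70: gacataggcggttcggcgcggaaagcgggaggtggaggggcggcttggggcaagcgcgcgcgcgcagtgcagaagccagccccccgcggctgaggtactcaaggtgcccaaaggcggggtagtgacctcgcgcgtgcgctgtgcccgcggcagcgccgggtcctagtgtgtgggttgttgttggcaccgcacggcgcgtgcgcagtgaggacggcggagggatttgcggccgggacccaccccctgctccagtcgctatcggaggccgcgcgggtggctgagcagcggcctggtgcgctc
SNRPA: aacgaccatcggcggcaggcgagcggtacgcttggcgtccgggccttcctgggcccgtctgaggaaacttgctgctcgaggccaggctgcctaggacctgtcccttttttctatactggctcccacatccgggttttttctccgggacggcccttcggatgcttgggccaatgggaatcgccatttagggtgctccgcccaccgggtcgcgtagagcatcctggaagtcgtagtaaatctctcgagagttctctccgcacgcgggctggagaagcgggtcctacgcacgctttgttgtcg
SNRPC: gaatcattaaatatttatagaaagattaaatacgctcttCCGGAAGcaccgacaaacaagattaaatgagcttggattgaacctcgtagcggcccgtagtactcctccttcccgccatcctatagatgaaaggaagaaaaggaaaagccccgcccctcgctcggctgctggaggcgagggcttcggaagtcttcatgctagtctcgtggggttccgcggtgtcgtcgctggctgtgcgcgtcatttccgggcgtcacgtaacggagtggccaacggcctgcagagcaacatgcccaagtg
Promoters were found for 39 of the 45 splicing factors. CCGGAAG stood on either strand in 17 of them (43.6%), and in 14.2% of 15843 promoters of coding genes of the same length. Of the 17, PRPF6, SF3A1, SF3A3, SF3B2, SF3B4, SNRNP200, SNRPC, SNRPD2, SNRPE, SRSF5 and U2AF2 fell. SNRPA1, SNRPB, SNRPB2 and SNRPG did not pass, and SF3A2 and SRSF4 had too few counts for the test. Whether these letters go with the fold change was not tested. TATAAA, the core of the TATA box, stood on either strand in 4 of the 39 (10.3%), namely SNRPC, SRSF11, SRSF3 and HNRNPC, against 9.63% of all. In SNRPC it is on the strand opposite to the one printed. The SNRNP70 window holds neither run of letters.

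SNRNP70, a protein that binds U1 RNA, had 0, 0, 1 and 0 counts in shALDH1A1 cells against 166, 4, 762 and 24 in CTRL cells. The groups did not overlap. CTRL replicate 2, the library with the fewest counts in all, came within a few counts. In TPM it was at 38.98, and CTRL replicate 4 lay nearest, at 9.94 against 1.73 in shALDH1A1 replicate 3. CTRL replicate 3 held most of the CTRL counts of SNRNP70. SNRNP70 averaged 0.432 ± 0.865 TPM (SD, n = 4) with the shRNA and 78.8 ± 84.3 TPM (SD, n = 4) in controls, so the CTRL libraries differed widely among themselves, from 9.94 TPM in replicate 4 to 200.5 TPM in replicate 3. Among the 45 genes by TPM it ranked 12, 12, 3 and 32 from the highest in CTRL replicates 1 to 4. In edgeR's test its log2 fold change was -6.76, with a standard error (SE) of 1.43 and an adjusted p of 0.000997, the lowest of the 41 splicing factors and 5.32 below the median of all genes. It was not the lowest without shALDH1A1 replicate 2 (rank 7), without shALDH1A1 replicate 4 or CTRL replicate 3 (rank 2), or in limma at a pseudocount of 5 (rank 3). Over the summed counts and TMM-scaled depths it was 218-fold lower in shALDH1A1 cells (95% exact interval 39.1 to 8630, counting error only), and 86.6-fold lower without CTRL replicate 3. An exact two-sided permutation test gave p = 0.0286, the smallest that 4 libraries against 4 allow. With at most 1 count in any shALDH1A1 library, SNRNP70 passed the filter on low counts through the CTRL libraries alone. Every CTRL library had to be higher for it to be tested, so the separation and this p were set in advance and add no support. SNRNP70 was not alone near the bottom of the table, since 4.13% of all tested genes had a log2 fold change as low or lower. It passed the test under all 19 alternatives run, with log2 fold changes from -9.67 to -3.37 and adjusted p from 8.47e-07 to 0.0201, and on the housekeeping scale it was at -4.60.

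SNRPC, which stabilises the pairing of U1 with the splice site, had 0, 4, 4 and 1 counts in shALDH1A1 cells against 139, 5, 85 and 55 in CTRL cells. The groups were apart, with at most 4 counts against at least 5. Its log2 fold change was -2.56 (adjusted p = 0.0471, edgeR) with TMM factors and 0.04 on the housekeeping scale, and the call was lost without shALDH1A1 replicate 1, 2 or 4 (adjusted p = 0.134, 0.0583 and 0.174) and without CTRL replicate 1 or 3 (adjusted p = 0.115 and 0.0644). SNRPA, which binds another loop of U1 RNA, had 0, 6, 3 and 0 counts against 145, 3, 177 and 37. CTRL replicate 2 lay within the shALDH1A1 range, and the log2 fold change of -2.54, close to that of SNRPC, did not pass (adjusted p = 0.0581, edgeR). It passed without shALDH1A1 replicate 2 (adjusted p = 0.0296), without CTRL replicate 2 (0.00122) and without CTRL replicate 4 (0.00758).

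**Figure D3:**
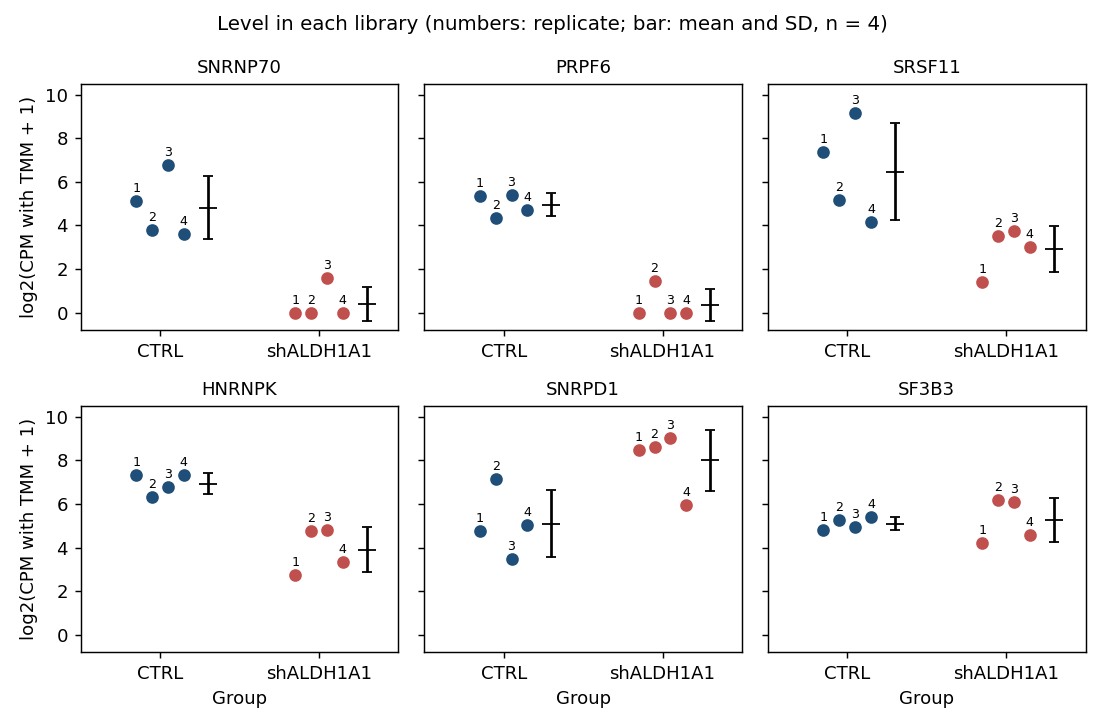
Level of 6 splicing factors in each library as log2(CPM with TMM + 1), CPM being counts scaled to library size, with the replicate number at each point and the mean and SD (n = 4) beside each group. SNRNP70, PRPF6, SRSF11 and HNRNPK do not overlap between groups, SNRPD1 is higher in shALDH1A1 libraries apart from an overlap of CTRL replicate 2 with shALDH1A1 replicate 4, and SF3B3 overlaps throughout; on the housekeeping scale the fold change of HNRNPK is above 0.

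The 7 Sm proteins form the ring on U1, U2, U4 and U5 RNA. SNRPE and SNRPD2 fell (28.6%, beside 33.0% of all genes) and SNRPB, SNRPD1, SNRPD3, SNRPF and SNRPG did not pass. Their median log2 fold change was -1.78, within a range of -4.07 to 2.67. SNRPE had 0, 2, 0 and 2 counts in shALDH1A1 cells against 150, 7, 53 and 63 in CTRL cells, with no overlap, and its log2 fold change was -4.07 (SE 1.09, adjusted p = 0.0056, edgeR). SNRPD2 had 0, 4, 7 and 0 counts against 346, 6, 93 and 120, where shALDH1A1 replicate 3 lay within the CTRL range. Its log2 fold change was -3.09 (adjusted p = 0.038, edgeR), a call lost without shALDH1A1 replicate 1, 2 or 4 (adjusted p = 0.114, 0.079 and 0.119) and without CTRL replicate 1 (0.0882). SNRPB, which makes the SmB and SmB′ proteins, had 0, 10, 1 and 0 counts against 142, 6, 104 and 44. It did not pass, at -2.26 (adjusted p = 0.0909, edgeR; 0.13 on the housekeeping scale), and was at -5.33 without shALDH1A1 replicate 2 (adjusted p = 0.00591), the library with 10 counts. It also passed without CTRL replicate 2 (0.00432) and without CTRL replicate 4 (0.0168).

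SNRPD1, the SmD1 protein, was the Sm protein whose log2 fold change lay above 0. It had 430, 226, 250 and 60 counts in shALDH1A1 cells against 129, 45, 71 and 66 in CTRL cells. It averaged 152 ± 43.9 TPM (SD, n = 4) with the shRNA and 30.5 ± 42.9 TPM (SD, n = 4) in controls. In TPM the lowest shALDH1A1 library, replicate 4 at 108.4, lay above the highest CTRL library, replicate 2 at 94.6, while with TMM factors those libraries overlapped. The log2 fold change of 2.67 (SE 1.30) did not pass in edgeR (adjusted p = 0.0994, exact two-sided permutation p = 0.0571), whereas DESeq2 called SNRPD1 higher (adjusted p = 0.00404) and so did edgeR without CTRL replicate 2 (3.17, adjusted p = 0.000673). On the housekeeping scale it was at 6.05 (adjusted p = 0.0154). SNRPD1 was the splicing factor with the highest TPM in shALDH1A1 replicates 1 to 3, a place held by HNRNPA1 in CTRL replicates 1, 2 and 4 and by SRSF11 in CTRL replicate 3.

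The counts of SNRPD1 also divided differently over its transcripts. NM_001291916.2 took 52.0, 36.0, 58.4 and 49.0% of them in shALDH1A1 cells against 0, 53.4, 2.55 and 2.37% in CTRL cells, and NM_006938.4 took the rest. CTRL replicate 2 resembled the shALDH1A1 libraries in this, and it was also the CTRL library with 71.0% of its counts in genes with repeated sequence. The longest coding transcript of SNRPD1 holds 758 such bases of 4858, the most of any splicing factor. The part of the repeated sequence in the level of SNRPD1 was not tested.

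**Figure D4:**
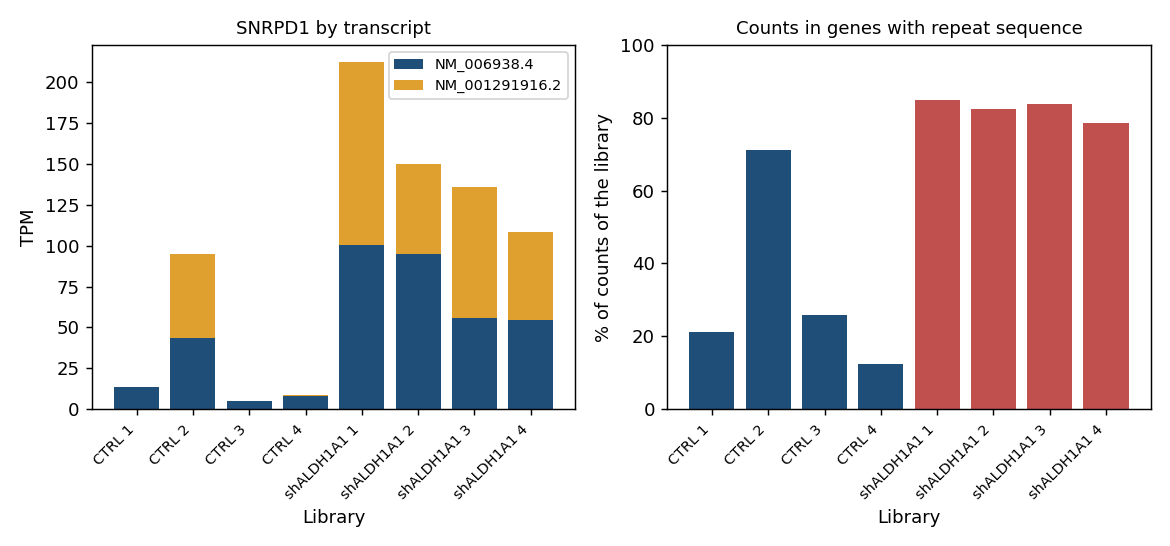
Level of the SNRPD1 transcripts in TPM (left, stacked bars) and the percent of each library's counts in genes with repeated sequence (right) in the 8 libraries. The 4 shALDH1A1 libraries and CTRL replicate 2 are high in both panels and CTRL replicates 1, 3 and 4 are low.

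Proteins of the U2 snRNP and U2AF select the branch point and the 3′ splice site. Of 11 genes, 9 were tested. SF3A1, SF3A3, SF3B2, SF3B4 and U2AF2 fell (55.6%, beside 33.0% of all genes), while SNRPA1, SNRPB2, SF3B1 and SF3B3 did not pass. SF3A1, a subunit of SF3a, had 0, 0, 2 and 0 counts in shALDH1A1 cells against 142, 5, 190 and 75 in CTRL cells. It had the lowest log2 fold change of the class, -5.17 (SE 1.23, adjusted p = 0.00246, edgeR), and passed under every alternative but the housekeeping scale (-2.64, adjusted p = 0.0618). U2AF2, the U2AF subunit that reads the polypyrimidine tract, had 0, 2, 3 and 0 counts against 168, 4, 318 and 47. The groups did not overlap, and its log2 fold change was -3.89 (SE 1.14, adjusted p = 0.0101, edgeR), with adjusted p = 0.054 without shALDH1A1 replicate 4. U2AF1, its partner that reads the AG at the intron end, was not tested. It had 0, 0, 0 and 1 counts in shALDH1A1 cells against 74, 0, 46 and 22 in CTRL cells. The groups overlapped, since CTRL replicate 2 lay below shALDH1A1 replicate 4. By summed counts, 1 against 142, U2AF1 was 32.4-fold lower (95% exact interval 5.72 to 1290, counting error only). SF3A3 was at -3.12 (adjusted p = 0.0139, edgeR) and at 0.83 on the housekeeping scale. SF3B4 had counts in shALDH1A1 replicate 2 only (4 counts) and 80, 2, 117 and 45 in the CTRL libraries, where replicate 2 lay just below it, with a log2 fold change of -3.45 (adjusted p = 0.0143, edgeR) that did not pass without shALDH1A1 replicate 1, 3 or 4 (0.0788, 0.0577 and 0.0877).

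SF3B1 and SF3B3, subunits of the SF3b complex that holds the branch point, had the highest log2 fold changes of the class. SF3B3 had 21, 42, 33 and 23 counts in shALDH1A1 cells against 132, 12, 207 and 87 in CTRL cells. With TMM factors the groups overlapped, at a log2 fold change of 0.40 (SE 0.94, adjusted p = 0.724, edgeR), which was below 0 with DESeq2 (-0.47), total counts (-1.04) and 4 other alternatives. Without CTRL replicate 2 it was at -0.33 and without CTRL replicate 4 at -0.14. SF3B1, the largest subunit of SF3b, had 73, 26, 48 and 8 counts against 300, 14, 1315 and 104, at -0.71 (adjusted p = 0.572, edgeR). Their transcripts hold 374 and 257 bases of repeated sequence.

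Of the tri-snRNP and activation proteins 5 of 7 tested were called lower, beside 33.0% of all genes, with a median log2 fold change of -4.53, and 1 of the 7 was lower on the housekeeping scale. The difference between classes was not tested. PRPF3, PRPF6, PRPF8, PRPF31 and SNRNP200 fell, PRPF19 and EFTUD2 did not pass, and PRPF4 was not tested. PRPF6, which bridges U5 and U4/U6, had 0, 1, 0 and 0 counts in shALDH1A1 cells against 200, 6, 290 and 53 in CTRL cells. It averaged 0.268 ± 0.535 TPM (SD, n = 4) against 25.9 ± 11.1 TPM (SD, n = 4). The groups did not overlap, which the filter on low counts required of PRPF6. The log2 fold change was -6.39 (SE 1.31, adjusted p = 0.000796, edgeR), next to that of SNRNP70, and PRPF6 passed under all 19 alternatives too. By summed counts it was 125-fold lower (95% exact interval 22.4 to 4960, counting error only), and 116-fold lower without CTRL replicate 3, so this library weighed less on PRPF6 than on SNRNP70.

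PRPF3, a U4/U6 protein, had 0, 1, 0 and 0 counts in shALDH1A1 cells against 52, 2, 155 and 21 in CTRL cells, and its log2 fold change was -5.11 (SE 1.13, adjusted p = 0.00131, edgeR). PRPF31, another U4/U6 protein, had 0, 2, 0 and 0 counts against 125, 3, 125 and 29, and was at -4.58 (SE 1.12, adjusted p = 0.00303, edgeR). SNRNP200, the helicase that unwinds U4 from U6, had 0, 2, 3 and 0 counts against 198, 5, 506 and 114, and was at -4.53 (SE 1.20, adjusted p = 0.00536, edgeR). The groups did not overlap in any of the 3 genes, as in 36.0% of all tested genes. This was largely set in advance, since the 3 genes passed the filter on low counts through the CTRL libraries alone. Each call was lost on the housekeeping scale, to adjusted p of 0.0941, 0.167 and 0.092 (edgeR). PRPF8, the scaffold of the catalytic core, was at -2.91 (adjusted p = 0.0466, edgeR), while EFTUD2, the U5 GTPase, was at -2.19 and did not pass (adjusted p = 0.069).

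SR and Tra2 proteins bind exons and favour their inclusion. Of 9 tested genes SRSF5, SRSF6 and SRSF11 fell (33.3%, beside 33.0% of all genes). SRSF1, SRSF2, SRSF3, SRSF7, TRA2A and TRA2B did not pass. SRSF11 had 2, 6, 6 and 7 counts in shALDH1A1 cells against 802, 11, 4022 and 36 in CTRL cells. No library overlapped with TMM factors, but in TPM CTRL replicate 4, at 6.02, lay below shALDH1A1 replicates 2 and 4, at 6.11 and 12.7. The log2 fold change was -4.69 (SE 1.38, adjusted p = 0.0106, edgeR), with adjusted p = 0.0516 without shALDH1A1 replicate 1. By summed counts SRSF11 was 52.9-fold lower, and 18.0-fold lower without CTRL replicate 3. SRSF5 had 1, 6, 0 and 0 counts against 318, 2, 1116 and 96, with an overlap of CTRL replicate 2. Its log2 fold change was -4.74 (SE 1.32, adjusted p = 0.00733, edgeR), and without CTRL replicate 3 the fold by summed counts went from 49.9 to 26.5. SRSF6 had 5, 7, 0 and 12 counts against 135, 4, 866 and 58, with no overlap with TMM factors but CTRL replicate 2 within the range in counts. In TPM shALDH1A1 replicate 4, at 24.11, lay above CTRL replicates 1, 2 and 4, at 16.2, 9.39 and 8.38. The log2 fold change of SRSF6 was -2.75 (adjusted p = 0.0436, edgeR), and 0.91 on the housekeeping scale. The call of SRSF6 with TMM factors was lost without any 1 of the 4 shALDH1A1 libraries (adjusted p = 0.113, 0.0681, 0.121 and 0.0687 for replicates 1 to 4) and without CTRL replicate 3 (0.205). SRSF7 was at -2.13 (adjusted p = 0.0998, edgeR; 0.03 on the housekeeping scale), and passed without shALDH1A1 replicate 2 (0.0295), CTRL replicate 2 (0.00304) or CTRL replicate 4 (0.01).

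The hnRNP proteins coat pre-mRNA and often repress splice sites. All 6 were tested and lay below the median of all genes, 5 of them with no overlap between groups (beside 36.0% of all genes). HNRNPK alone was called lower (16.7%, beside 33.0% of all genes). HNRNPK, a poly(C) binding protein, had 7, 15, 13 and 9 counts in shALDH1A1 cells against 778, 25, 764 and 330 in CTRL cells. It averaged 16.2 ± 10.1 TPM (SD, n = 4) against 101 ± 30.4 TPM (SD, n = 4), and its log2 fold change in edgeR was -2.93 (SE 1.10, adjusted p = 0.0389, edgeR). It did not pass without shALDH1A1 replicate 1, 2, 3 or 4 (adjusted p = 0.113, 0.0857, 0.0683 and 0.127) or CTRL replicate 1 or 3 (0.0667 and 0.0524), and on the housekeeping scale it was at 0.23. HNRNPA1, the most abundant of them in CTRL libraries, had 17, 36, 50 and 30 counts against 2662, 93, 1260 and 1237. The groups were apart (p = 0.0286, exact two-sided permutation test), yet the log2 fold change of -2.95 did not pass (adjusted p = 0.0724, edgeR; 0.26 on the housekeeping scale). It passed without CTRL replicate 2 (4.64e-05) or CTRL replicate 4 (0.00736). HNRNPA2B1 and PTBP1, the polypyrimidine tract binding protein, were at -2.81 and -2.44 (adjusted p = 0.076 and 0.0751, edgeR). Both passed without CTRL replicate 2 (0.000112 and 0.00053) and without CTRL replicate 4 (0.00138 and 0.00386), and PTBP1 also without shALDH1A1 replicate 2 (0.0358).

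The rows that were summed into genes were transcripts, and 33 of the 45 splicing factors had more than 1. Of 172 rows, 77 had counts in the shALDH1A1 libraries and 141 in the CTRL libraries. At a minimum of 20 counts in the shALDH1A1 libraries, 14 genes with several rows could be looked at, and in 6 of them (HNRNPC, SNRPG, SRSF2, SRSF11, TRA2A and TRA2B) another transcript led than in the CTRL libraries. For TRA2A, a splicing activator, NM_001362759.2 took 87.2% of 29 counts in shALDH1A1 cells and 1.86% of 429 counts in CTRL cells. For SNRPG, the SmG protein, NM_003096.4 took 28.2% of 30 counts in shALDH1A1 cells and 93.0% of 231 counts in CTRL cells. These shares rest on few counts and on the division of reads among transcripts by the quantifier, and were not tested.

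The median fold change was higher among splicing factors with repeated sequence in their transcript, a difference that was not tested. They numbered 11, of which 10 were tested and 2 fell, with a median log2 fold change of -1.75, while of the 31 tested splicing factors without it 16 (51.6%) fell, with a median of -2.81. Of all genes with repeated sequence 9.23% were called lower, and of those without it 47.9%. A split in the same direction stood in the whole table, where genes with repeated sequence had a median of 1.07 over 3011 tested genes and those without it a median of -2.53 over 4857. In a fit on the tested genes without repeated sequence, added after the data had been seen, 9 of 31 splicing factors (29.0%) were called lower and 0 higher, beside 23.1% lower and 6.88% higher of all genes in that fit. The medians in that fit were -1.55 for the splicing factors and -1.19 for all genes, and SNRNP70 was at -5.45 (adjusted p = 0.00654, edgeR).

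**Figure D5:**
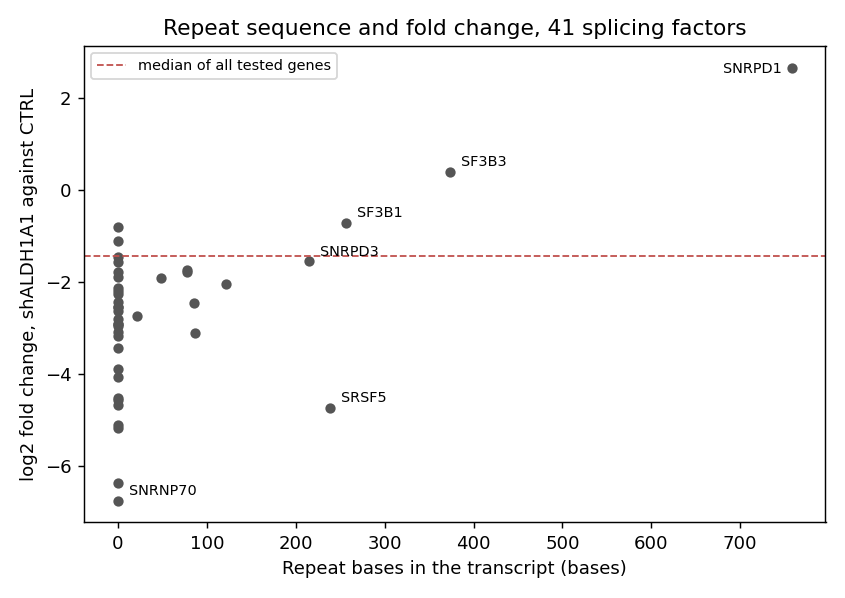
Log2 fold change with TMM factors, shALDH1A1 against CTRL, of the 41 tested splicing factors against the bases of repeated sequence in their longest coding transcript; the dashed line is the median of all tested genes. SNRPD1, SF3B3 and SF3B1, with 758, 374 and 257 bases, lie above that line and SRSF5, with 239, far below it; SF3B3 changes sign with other scalings.

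The other genes of the pathway were listed by role. Of these 134 further splicing genes 107 were tested, and 44 fell and 0 rose (41.1% lower, beside the 33.0% of all genes), with a median log2 fold change of -2.28. At an unadjusted p under 0.05, 60 were lower and 0 higher. DESeq2 called 85 lower and 6 higher, where 56.0% of all genes were called lower and 16.7% higher. On the housekeeping scale, 5 of the 107 fell and 22 rose, where 5.49% of all tested genes fell and 40.7% rose. The count of lower calls was 100 without CTRL replicate 2 and 72 without CTRL replicate 4, where 60.4 and 44% of all genes were lower. By list, 21 of 47 tested core snRNP and spliceosome proteins fell, 18 of 48 other regulators, 3 of 5 minor spliceosome proteins and 2 of 7 snRNP assembly factors. HNRNPDL, an hnRNP protein, had 1, 1, 0 and 0 counts in shALDH1A1 cells against 371, 11, 495 and 164 in CTRL cells, at -6.59 (adjusted p = 0.000725, edgeR). SON, a nuclear speckle protein, was at -6.94 (adjusted p = 0.00095) and LSM2, of the U6 ring, at -4.85 (adjusted p = 0.00118). Of the genes named by rule, CRNKL1, DHX38, ESRP2 and GEMIN7 had 0 counts in all 4 shALDH1A1 libraries, as did ZRSR2, CHERP, SNRNP48, RNPC3, DDX20 and WDR77 of the same lists. Zeros were common, since 43.1 to 61.6% of all genes were at 0 in each shALDH1A1 library. The share of all genes at 0 in all 4 libraries together is not given here. Taking 3 counts over the 4 libraries as the floor, with TMM-scaled depths, ESRP2, an epithelial splicing regulator, was at least 57.1-fold lower (24.5 without CTRL replicate 3), DHX38, a splicing helicase, at least 17.6-fold, CRNKL1 at least 10.0-fold and GEMIN7 at least 6.16-fold. SNRNP25, ZMAT5 and ZCRB1 of the minor spliceosome were at -4.54, -4.51 and -3.92 (adjusted p = 0.00196, 0.00208 and 0.0105, edgeR). Of the assembly factors, CLNS1A was at -3.29 (adjusted p = 0.0223, edgeR) and STRAP at -2.11 (adjusted p = 0.0752), which did not pass.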

How the data were processed

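The deposited table held, for 84798 transcripts, the expected counts and TPM per library that the authors made. According to the study's methods the reads were aligned with HISAT and quantified with RSEM, while the submitters' processing notes name Bowtie2, BWA and GRCh38.p13, and the difference could not be settled. The authors' expected counts are not normalized, and 64.7% of non-zero values are not whole at a tolerance of 0.001. The deposited TPM values were summed per gene for levels and for limma. Counts were summed per gene symbol and rounded. edgeR 4.0.16 (minimum count 10, minimum total count 15, TMM factors, two-sided quasi-likelihood test, adjusted by Benjamini-Hochberg over 7971 genes) was the main test, with DESeq2 1.42.0 and limma 3.58.1 on log2(TPM + 1) as alternatives, in R 4.3.3. The edgeR test was checked on simulated data. The main fit had no replicate block, since no source states that the numbers pair the libraries. The other alternatives were other pseudocounts, filters and scalings, a replicate block and leaving out each library. Standard errors (SE) were taken from the log2 fold change and the root of its F statistic.

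Libraries held 291260 to 4137111 counts. No molecular identifiers were used, so counting intervals and floors do not cover amplification. Repeated sequence was found as runs of 21 bases that occur in the longest coding GENCODE transcript of at least 100 genes, and a gene with at least 50 such bases counts as holding it. A value was had for 96.2% of the genes. This search was added after the data had been seen. RSEM used other transcript models, so the match is approximate.

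The splicing factors and gene lists were chosen with earlier results of these data known. Named were SNRNP70, up to 4 members of each class with the smallest unadjusted p, members whose log2 fold change exceeded the median of all genes by over 1, members that rose, and up to 3 genes of each other list by smallest p. Members named beyond this rule were chosen after their values were seen.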

Additional observations from a re-analysis of the deposited data

Results flagged for a closer look

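In 6 of 48 groups of 4 libraries, 1 library stood far from the others, by a rule on the gap against the range that flags about 5% of groups of continuous values. Each case was an shALDH1A1 library with 1 to 4 counts where the other 3 had 0. The rule flags every such case, because 3 libraries tied at 0 make the gap equal to the range. The 5% therefore does not apply to these 6, and no excess can be read from them. On the scale log2(CPM with TMM + 1) these were SNRNP70 at 1.6 and SF3A1 at 2.34 in replicate 3, and SF3B4 at 2.97, PRPF3 at 1.44, PRPF6 at 1.44 and PRPF31 at 2.15 in replicate 2. Of the shALDH1A1 libraries, replicate 2 had counts for the most genes, 10624, and the fewest splicing factors at 0, with 4.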

How the results depend on the processing

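Splicing factors called lower, 18 in the main test, numbered 38 with DESeq2, 37 with median-of-ratios factors, 37 with total counts, 37 without the filter on low counts (where 56.0, 52.6, 52.0 and 39.5% of all genes were lower), 28 with limma at a pseudocount of 1 and 28 at 5, 2 on the housekeeping scale and 9 on genes without repeated sequence. Leaving out 1 library gave 12 to 40. Higher calls, 0 in the main test, numbered 1 with DESeq2, median-of-ratios factors, no count filter and each of the 4 limma settings, 3 on the housekeeping scale, and 0 to 1 leaving out 1 library. For the other splicing genes, 44 lower calls became 85 with DESeq2, 78 with median-of-ratios factors, 75 with total counts, 90 without the filter, 68 and 69 with limma at pseudocounts of 1 and 5, 5 on the housekeeping scale, 24 on genes without repeated sequence and 31 to 100 leaving out 1 library. Their higher calls, 0 in the main test, became 6 with DESeq2, 4 with median-of-ratios factors, 3 without the filter, 4 with limma at 1, 5 at 0.1, 5 at 5 and 5 without its filter, 22 on the housekeeping scale, 1 on genes without repeated sequence and 0 to 6 leaving out 1 library. Of all genes tested, 16.7% were called higher with DESeq2 and 40.7% on the housekeeping scale. Of all calls over the whole table, 92.7% were lower in the main test, 11.9% on the housekeeping scale, 77.0% with DESeq2 and 70.9% with the replicate block. On the housekeeping scale, SNRPC (0.04), SNRPB (0.13), SF3A3 (0.83), SRSF6 (0.91), SRSF7 (0.03), HNRNPK (0.23) and HNRNPA1 (0.26) turned above 0, none of these 7 past the threshold. Of 13 further factors that turned, SNRPG (2.75) passed. SF3B3 turned below 0 with DESeq2 (-0.47), median-of-ratios factors (-0.47), total counts (-1.04) and no count filter (-0.27), without CTRL replicate 2 (-0.33) and without CTRL replicate 4 (-0.14), and ranged from -0.33 to 0.87 leaving out 1 library, never past the threshold. The cause of these moves was not tested. SNRNP70 and PRPF6 kept their direction and passed under all 19 alternatives, SNRNP70 at -9.67 to -5.63 leaving out 1 library.

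The main fit did not pair same-numbered libraries. The correlations of their deviations were -0.347, -0.0674, -0.176 and 0.146 for replicates 1 to 4. With so few libraries these cannot show whether same-numbered libraries were prepared together. With the replicate block 21 splicing factors were called lower and 0 higher, with SNRNP70 at -6.77, and 45 other splicing genes were called lower and 3 higher. Depth limits the single values, since 30 to 40 of the 45 splicing factors had at most 10 counts in each shALDH1A1 library and 36 had in CTRL replicate 2.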
